A study of Mus musculus with 9 samples.

Results

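The genes described here are 10 negative feedback and output genes of the RAS-ERK cascade, out of 49671 genes in the count files. They were chosen by symbol, as the phosphatases Dusp1, Dusp4, Dusp5 and Dusp6, the Sprouty genes Spry1, Spry2 and Spry4, the Sprouty-related genes Spred1 and Spred2, and the transcription factor Etv5. All 10 symbols matched 1 Ensembl gene each, and all 10 passed the filter on low counts. All are protein-coding, and on GRCm38 (mm10) they lie, with their strand, as follows: Dusp1 at chr17:26505590-26562128 (minus), Dusp4 at chr8:34807297-34819894 (plus), Dusp5 at chr19:53529109-53542431 (plus), Dusp6 at chr10:99263231-99267489 (plus), Spry1 at chr3:37639947-37644598 (plus), Spry2 at chr14:105891947-105896819 (minus), Spry4 at chr18:38586247-38601415 (minus), Spred1 at chr2:117121374-117182279 (plus), Spred2 at chr11:19924375-20024026 (plus) and Etv5 at chr16:22381309-22439719 (minus). The libraries hold RNA of KIT+CD45- cells sorted from dermis of female wild-type C57BL/6 mice. There were 3 libraries of melanoblasts, the unpigmented melanocyte precursors, from pups at postnatal day 0.5. Another 4 libraries held quiescent melanocyte stem cells (McSC) of adults aged 8 to 10 weeks, and 2 held McSC of mice aged 24 months. Adult and aged skin was in telogen, when hair follicles hold stem cells and no mature melanocytes. The labels name no transgene, deletion or treatment in any group. Each library pooled several animals, the sort used the receptor KIT itself, and the aged mice had come from another colony at 21 months, so colony and age cannot be told apart.

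ERK is switched on when receptor tyrosine kinases load RAS with GTP and the RAF and MEK kinases pass the signal on. Nuclear and cytoplasmic DUSP phosphatases remove the activating phosphates from ERK and related kinases, Sprouty proteins act between receptor and RAF, and SPRED proteins bring the RAS inhibitor neurofibromin to the membrane. Several of these genes are themselves transcribed when ERK is active, so their mRNA is widely read as a record of recent signalling. In melanocytes the route runs from KIT through BRAF to MITF, and loss of SPRED1 in people causes Legius syndrome, which includes pigmented skin spots.

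Bases from before the start sites of 4 members are shown because these genes moved in opposite directions: Dusp1 and Dusp6 were higher in McSC, and Etv5 and Spred1 were lower. RefSeq (GRCm38.p6) gave windows for 8 of the 10 members, 9 in all because Etv5 had 2, and each was read over the 250 bases before the annotated start. Printed below, 5′ to 3′ on the strand of the gene, are the stretches that no GENCODE exon covers. They are chr17:26508520-26508722 (minus strand, Dusp1), chr10:99262981-99263230 (plus strand, Dusp6), chr16:22438369-22438618 (minus strand, Etv5) and chr2:117120821-117121070 (plus strand, Spred1). The Dusp1 and Etv5 stretches lie within the spans of their genes given above. For Etv5 only the downstream of its 2 windows is shown. The exon-free stretch of the upstream one, chr16:22439720-22439820 (101 bases), is not printed. Capitals mark matches to any of 5 motifs, searched on both strands of the whole windows: TGACGTCA, the cyclic AMP response element, TGANTCA (AP-1), CCGGAAGT (ETS), GCGTGGGCG (EGR) and the CArG box bound by serum response factor. AP-1 and the cyclic AMP response element share their outer bases but differ in length, so neither contains the other.
Dusp1: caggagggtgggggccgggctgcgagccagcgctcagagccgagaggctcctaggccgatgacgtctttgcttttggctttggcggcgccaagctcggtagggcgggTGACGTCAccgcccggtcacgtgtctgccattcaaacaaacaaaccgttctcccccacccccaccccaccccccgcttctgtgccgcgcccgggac
Dusp6: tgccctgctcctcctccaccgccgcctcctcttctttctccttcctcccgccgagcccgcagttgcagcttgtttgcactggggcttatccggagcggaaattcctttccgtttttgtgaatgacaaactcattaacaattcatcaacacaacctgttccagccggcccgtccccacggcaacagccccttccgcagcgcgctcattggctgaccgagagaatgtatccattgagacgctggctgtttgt
Etv5: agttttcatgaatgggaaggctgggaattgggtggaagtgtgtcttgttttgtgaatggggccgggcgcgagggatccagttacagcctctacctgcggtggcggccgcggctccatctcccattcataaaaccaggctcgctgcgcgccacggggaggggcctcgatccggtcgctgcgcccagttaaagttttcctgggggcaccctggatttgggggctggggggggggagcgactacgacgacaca
Spred1: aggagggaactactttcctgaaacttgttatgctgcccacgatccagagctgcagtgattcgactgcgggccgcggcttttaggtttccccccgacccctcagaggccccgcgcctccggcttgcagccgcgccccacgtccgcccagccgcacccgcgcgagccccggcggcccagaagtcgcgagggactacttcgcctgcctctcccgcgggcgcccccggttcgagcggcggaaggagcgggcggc

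The Dusp1 window held 1 cyclic AMP response element, at -143 to -136 from the start, a motif found in 1.55% of all 32851 windows of this length. The Dusp5 window, which lies in annotated exons and is not printed, held 2 CArG boxes side by side, CCATATTTGG at -82 to -73 and CCTTATATGG at -72 to -63, while 1.47% of windows held any. In the other 7 member windows none of the 5 motifs was found. AP-1, ETS and EGR motifs occurred in 6.75%, 2.88% and 0.536% of all windows. G and C made up 56.0% (Spred2) to 71.2% (the upstream Etv5 window) of the member windows, against a median of 52.4% over all windows. A match describes the letters of the window and is no measure of binding.

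Library totals were 23688288 to 33710117 counts for the melanoblasts, 19956424 to 21572026 counts for the adult McSC and 12594770 to 16362560 counts for the aged McSC. Levels are given as CPM, the usual depth-scaled counts, here after scaling library totals with TMM factors, which ran from 0.56 to 0.842 in melanoblasts and from 1.085 to 1.515 in McSC. Because these factors differ so much between groups, directions were also read with factors from abundant genes alone, which moved the median log2 fold change of all genes from 0.39 to 1.15 in adult McSC against melanoblasts, from 0.08 to 0.42 in aged against adult McSC and from 0.70 to 1.78 in aged McSC against melanoblasts. Kit was at 2733 ± 433 CPM (SD, n = 3) in melanoblasts, 985.0 ± 453 CPM (SD, n = 4) in adult and 790.3 ± 81.9 CPM (SD, n = 2) in aged McSC, and Ptprc, which encodes CD45, had means of 1.70, 5.74 and 6.89 CPM. The 8 melanocyte lineage markers summed to 12958 to 23828 CPM in melanoblasts, 3948 to 9938 CPM in adult and 6955 to 8144 CPM in aged libraries, and 7 of the 8 were lower in adult McSC than in melanoblasts.

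Markers of other skin cells were present too, and no listed marker was at 0 in every library. Between adult McSC and melanoblasts, 9 of 10 keratinocyte markers were higher and 1, Cdh1, which melanocytes also express, was lower. The same comparison had 3 of 6 Schwann cell, 3 of 6 macrophage, 2 of 5 endothelial and 1 of 6 T and NK cell markers higher, 1 of 7 fibroblast markers higher and 3 lower, 2 of 6 mast cell markers lower and none of 3 erythroid markers called. With factors from abundant genes 6 of 6 Schwann cell, 4 of 6 macrophage, 4 of 5 endothelial and 4 of 6 T and NK cell markers were higher, 1 of 7 fibroblast markers was higher and none lower, 1 of 6 mast cell markers was lower, and the keratinocyte counts stayed at 9 and 1. The 10 keratinocyte markers summed to 1554 to 2345 CPM in melanoblasts, 1455 to 2541 CPM in adult and 1091 to 1288 CPM in aged McSC, but most of the melanoblast sum was Cdh1. The other 9 summed to 74.7 to 242.9 CPM in melanoblasts, 985.7 to 2209 CPM in adult and 775.2 to 959.5 CPM in aged McSC. Summed levels in melanoblast, adult and aged libraries were 92.3 to 107, 163.3 to 234.9 and 58.5 to 62.5 CPM for Schwann cells, and 541.2 to 2050, 462.7 to 925.5 and 109.9 to 217.2 CPM for fibroblasts. Their part in the results below was not tested, and in such bulk libraries fewer cells of a type and less RNA per cell cannot be told apart.

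The comparison of adult McSC with melanoblasts sets the resting stem cell beside its newborn precursor, and the feedback genes split. Dusp1 rose 3.37-fold and Dusp6 3.02-fold, while Etv5 was 10.3-fold, Spred1 3.11-fold and Spred2 2.91-fold lower. Dusp4 was lower as well, but not under every scaling, and the 3 Sprouty genes and Dusp5 did not pass the test. In all, 2 of 10 members were higher and 4 lower (edgeR's quasi-likelihood test, Benjamini-Hochberg adjusted p under 0.05). Over all 31961 genes tested 15.1% were higher and 18.3% lower. The median log2 fold change of the members was -0.35 and that of all genes 0.39. With factors from abundant genes 4 members were higher and 3 lower, their median was 0.44, and the split of all genes moved from 4836 higher and 5840 lower to 10416 and 1985.

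**Figure D1:**
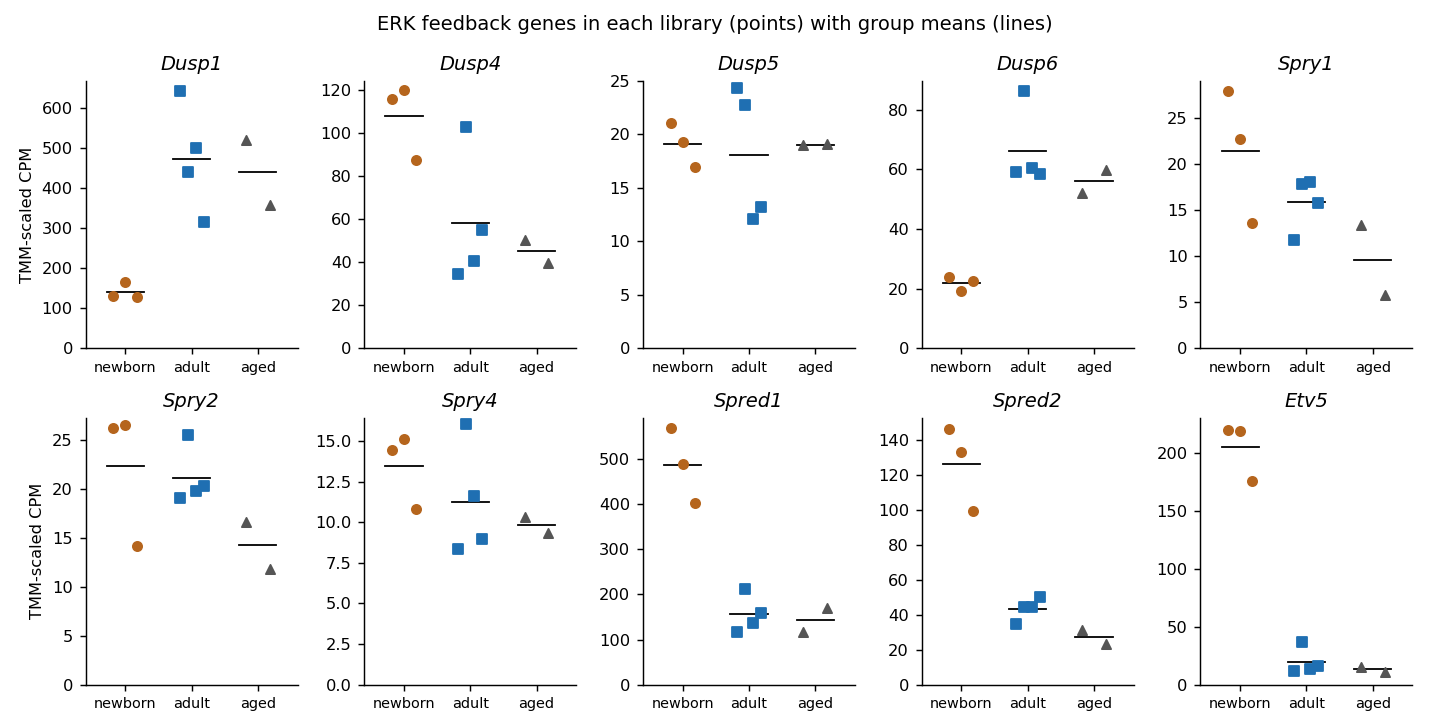
TMM-scaled CPM of each of the 10 genes (1 panel each, linear axis from 0) in every library, with points for libraries and a line for the group mean, in newborn melanoblasts (n = 3), adult McSC (n = 4) and aged McSC (n = 2). For Dusp1 and Dusp6 all 6 McSC libraries lie above the 3 melanoblast libraries, and for Spred1, Spred2 and Etv5 all 6 lie below.

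Dusp1 encodes a nuclear phosphatase of ERK, JNK and p38, and is itself an immediate early gene. It stood at 129.9, 164.5 and 126.8 CPM in the 3 melanoblast libraries, at 641.0, 439.5, 498.3 and 313.8 CPM in the 4 adult libraries, and at 519.3 and 358.4 CPM in the 2 aged ones. Every McSC library was above every melanoblast library, and adult replicates 1 and 4 were the highest and the lowest of their group. The log2 fold change in adult McSC was 1.75 (SE 0.258, adjusted p = 1.25e-05 by edgeR). It stayed between 1.64 and 2.59 over the 19 alternative settings. The annotated exons of Dusp1 (ENSMUSG00000024190) overlap those of Ergic1 on the other strand, which had 5609 counts over all libraries against 73148 for Dusp1.

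Dusp6 encodes a cytoplasmic phosphatase selective for ERK and is a standard readout of its activity. Its level was 24.0, 19.2 and 22.4 CPM in melanoblasts, 59.2, 86.3, 60.5 and 58.4 CPM in adult McSC, and 52.2 and 59.8 CPM in aged McSC. Every McSC library was above every melanoblast library, and adult replicate 2 lay far above the other 3 adult libraries. The log2 fold change in adult McSC was 1.60 (SE 0.229, adjusted p = 8.78e-06 by edgeR), and it ran from 1.44 to 2.40 over the alternatives.

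Dusp4 encodes a nuclear phosphatase that acts on ERK and is induced by it in many cells. It was at 116.1, 120.1 and 87.6 CPM in melanoblasts, 34.4, 102.8, 40.4 and 55.0 CPM in adult McSC, and 50.6 and 39.5 CPM in aged McSC. Adult replicate 2 overlapped the melanoblasts, and the other 3 adult libraries and both aged ones were below them. The log2 fold change of -0.89 (SE 0.284, adjusted p = 0.0183 by edgeR) was -0.16 (adjusted p = 0.547) with factors from abundant genes and -0.06 (adjusted p = 0.869) with library totals alone. Without melanoblast replicate 1 or 2, or adult replicate 1 or 3, it was -0.84, -0.81, -0.63 and -0.75, with adjusted p = 0.0628, 0.0611, 0.0951 and 0.0723. Leaving out any single library kept it below 0, from -1.32 (without adult replicate 2) to -0.63.

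Dusp5, a nuclear phosphatase selective for ERK, did not separate the groups. Its exons overlap an antisense gene, AC137853.2, that is not among the genes counted. Its level was 17.0 to 21.1 CPM in melanoblasts, 24.4, 22.8, 12.1 and 13.2 CPM in adult McSC, and 19.0 and 19.1 CPM in aged McSC. The 4 adult libraries fell into a higher and a lower pair on either side of the melanoblast values. The log2 fold change of -0.08 (SE 0.26, adjusted p = 0.832 by edgeR) became 0.72 (adjusted p = 0.041) with factors from abundant genes.

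The Sprouty genes encode membrane-associated inhibitors that act upstream of ERK. The annotated exons of Spry1 overlap those of Gm42922 on the other strand, which had 51 counts over all libraries against 3114 for Spry1. Spry1 was at 27.9, 22.7 and 13.6 CPM in melanoblasts and 11.7, 17.8, 17.99 and 15.7 CPM in adult McSC. Spry2 was at 26.2, 26.5 and 14.2 CPM in melanoblasts and 19.1, 25.5, 19.8 and 20.3 CPM in adult McSC. Melanoblast replicate 3 was the lowest of its group for both genes, and the groups overlapped. Spry4 was at 14.4, 15.1 and 10.8 CPM in melanoblasts and 8.38, 16.0, 11.6 and 8.99 CPM in adult McSC, again with overlap. Their log2 fold changes were -0.43 (SE 0.288), -0.08 (SE 0.252) and -0.26 (SE 0.27), with adjusted p = 0.246, 0.833 and 0.47 by edgeR. With factors from abundant genes all 3 signs turned, to 0.37, 0.73 and 0.51, and Spry2 then passed (adjusted p = 0.0104). Without melanoblast replicate 3, Spry1 passed as lower (log2 fold change -0.68, adjusted p = 0.0496).

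Spred1 and Spred2 encode the adaptors that recruit neurofibromin, the product of Nf1, to RAS. Spred1 was at 567.5, 487.4 and 401.6 CPM in melanoblasts, 117.6, 212.5, 135.8 and 158.2 CPM in adult McSC, and 116.0 and 170.4 CPM in aged McSC. Spred2 was at 146.3, 133.0 and 99.3 CPM in melanoblasts, 34.8, 44.2, 44.3 and 50.1 CPM in adult McSC, and 31.5 and 23.0 CPM in aged McSC. All McSC libraries were below all melanoblast libraries for both genes. Log2 fold changes in adult McSC were -1.64 for Spred1 (SE 0.239, adjusted p = 1.1e-05) and -1.54 for Spred2 (SE 0.221, adjusted p = 8.68e-06) by edgeR. With library totals alone they were -0.80 and -0.68, and both still passed (adjusted p = 0.00415 and 0.00918).

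Etv5, an ETS factor of the PEA3 group that is transcribed downstream of FGF and ERK signals, had the largest change among the 10 genes. It stood at 220.4, 219.7 and 175.8 CPM in melanoblasts, 12.2, 37.0, 14.0 and 16.6 CPM in adult McSC, and 15.4 and 11.2 CPM in aged McSC. The lowest melanoblast library was several times above the highest McSC library, adult replicate 2. The log2 fold change in adult McSC was -3.36 (SE 0.306, adjusted p = 1.76e-08 by edgeR), a 10.3-fold difference that ranged from -3.95 to -2.54 on the log2 scale over the alternatives.

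**Figure D2:**
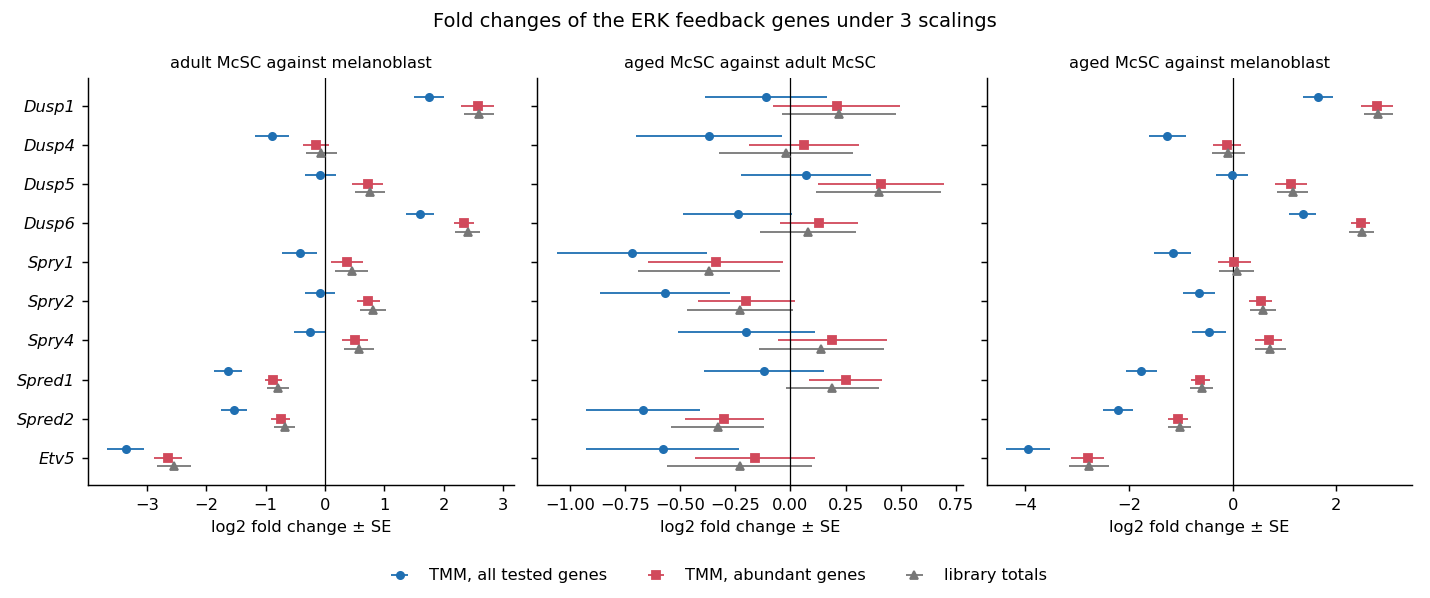
Log2 fold change ± SE (horizontal axis) of each gene (rows) in the 3 comparisons (panels), with TMM factors from all tested genes (circles), TMM factors from abundant genes (squares) and library totals alone (triangles). In both comparisons with melanoblasts, Dusp1 and Dusp6 stay right of 0 and Spred1, Spred2 and Etv5 left of 0 under each scaling, whereas Dusp5, Spry1, Spry2 and Spry4 cross it.

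Ratios between members of the same library are free of any scaling factor, and these pairs were chosen after the values were seen. Dusp6 had 0.0875 to 0.127 counts for each Etv5 count in melanoblasts, 2.33 to 4.87 in adult McSC and 3.39 to 5.35 in aged McSC. The ratio of Dusp6 to Spred1 was 0.0395 to 0.0557 in melanoblasts, 0.369 to 0.504 in adult and 0.351 to 0.45 in aged McSC. So Etv5 had more counts than Dusp6 in every melanoblast library, and Dusp6 more than Etv5 in every McSC library. The nuclear phosphatases also parted, with 1.12 to 1.45 Dusp1 counts for each Dusp4 count in melanoblasts, 4.28 to 18.6 in adult and 9.08 to 10.3 in aged McSC. The ratio of Etv5 to Spry4 went from 14.5 to 16.2 in melanoblasts to 1.21 to 2.31 in adult and 1.20 to 1.49 in aged McSC.

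**Figure D3:**
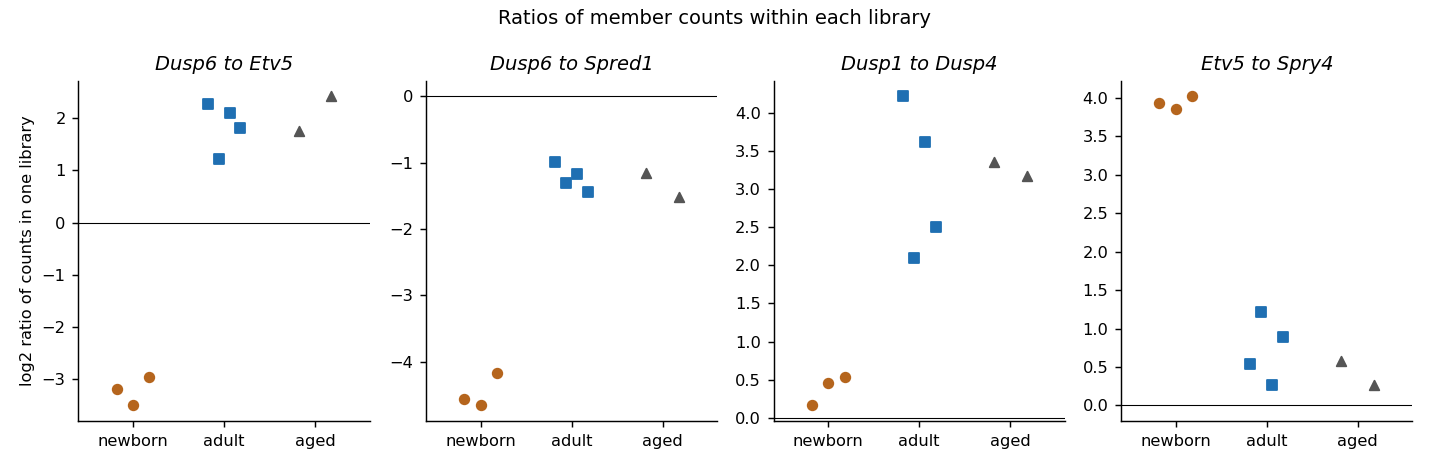
Log2 ratio of the raw counts of 2 members within each library (vertical axis), by group, for 4 pairs. In each pair no McSC library lies among the melanoblast libraries, and Dusp6 to Etv5 changes sign, below 0 in the 3 melanoblast libraries and above 0 in the 6 McSC libraries.

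Adult replicate 2 had the highest level of its group for Dusp4, Dusp6, Spry2, Spry4, Spred1 and Etv5, but not for Dusp1, Dusp5, Spry1 or Spred2. It also had the highest sum of melanocyte lineage markers among adult libraries, 9938 CPM against 3948, 5211 and 6707 CPM in replicates 1, 3 and 4. By TMM-scaled CPM, melanoblast replicate 3 had the lowest level of its group for Dusp1, Dusp4, Dusp5, Spry1, Spry2, Spry4, Spred1, Spred2 and Etv5. Its lineage marker sum was also the lowest, 12958 CPM against 22046 and 23828 CPM. But its TMM factor was 0.842, against 0.56 and 0.569 in replicates 1 and 2, and the order of most of these genes depended on the factors. By counts over library totals alone, replicate 3 was lowest only for Spry1 and Spry2, and highest for the other genes just named. The part of lineage content in these levels was not tested. With both libraries left out, an alternative added after seeing the data, 2 members were higher and 5 lower in adult McSC against melanoblasts. Of all 31557 genes then tested, 8071 were higher and 6971 lower. The log2 fold changes of Dusp1, Dusp6, Spred1, Spred2 and Etv5 were 1.72, 1.46, -1.94, -1.70 and -3.95.

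Levels can be compared between genes only per length, as TMM-scaled CPM per kilobase of exon. In melanoblasts Spred1 led with 71.6 ± 12.2 (SD, n = 3), followed by Etv5 at 50.04 ± 6.23, Dusp1 at 42.4 ± 6.33, Dusp4 at 39.4 ± 6.48 and Spred2 at 27.3 ± 5.24. Etv5, Dusp1 and Dusp4 had overlapping ranges. Spry2, Dusp5, Spry1 and Dusp6 followed at 10.7, 7.74, 7.36 and 6.99 with overlapping ranges, and Spry4 was lowest at 2.83 ± 0.483. In adult McSC Dusp1 led by a wide margin with 142.9 ± 41.0 (SD, n = 4). Spred1 at 23.0 ± 6.07, Dusp4 at 21.2 ± 11.3 and Dusp6 at 21.1 ± 4.31 were next and could not be ordered. Spry2, Spred2, Dusp5, Spry1 and Etv5 ran from 10.1 down to 4.86, each overlapping its neighbour, and Spry4 was again last at 2.37 ± 0.733, its range reaching that of Etv5. Etv5 ranked 2 in melanoblasts and 9 in adult McSC, and Dusp6 ranked 9 and 4. Aged McSC had Dusp1 at 132.5 ± 34.4 (SD, n = 2), Spred1 at 21.1 ± 5.67, Dusp6 at 17.9 ± 1.72 and Dusp4 at 16.4 ± 2.87, and Etv5 stood at rank 9 as in adults.

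**Figure D4:**
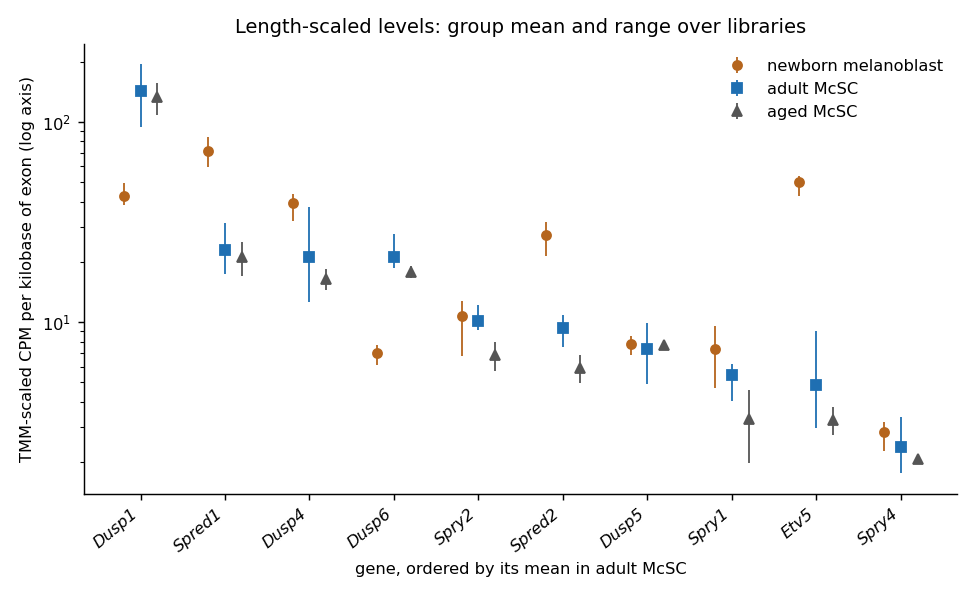
TMM-scaled CPM per kilobase of exon (log axis) of the 10 genes, with symbols for group means and bars for the lowest and highest library. Genes run in order of their adult mean, and the melanoblast symbols of Spred1, Spred2 and Etv5 stand above the McSC symbols while those of Dusp1 and Dusp6 stand below them.

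Aged McSC against adult McSC asks whether the resting stem cell differs late in life. None of the 10 genes passed, by edgeR or in any of the 19 alternatives, which included DESeq2 and limma. At an unadjusted p under 0.05 there were 3275 of all 31961 genes tested. Few passed the adjusted test, 0.0532% of those tested being higher and 0.250% lower. Among the members 2 were under that unadjusted level, Spry1 and Spred2. Spred2 was at 31.5 and 23.0 CPM in aged and 34.8 to 50.1 CPM in adult libraries, which did not overlap, and its log2 fold change was -0.67 (SE 0.26, adjusted p = 0.405 by edgeR). Spry1 was at 13.3 and 5.73 CPM in aged libraries, the second of them below every other library, and its log2 fold change was -0.72 (SE 0.341, adjusted p = 0.48). Spry2, at 16.7 and 11.9 CPM, was also below all 4 adult libraries (log2 fold change -0.57, SE 0.294, adjusted p = 0.513). Beside these values, 3 of 6 Schwann cell and 3 of 7 fibroblast markers were lower in aged than in adult McSC, or 1 and 0 with factors from abundant genes.

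For the other 7 members, as for Spry2 (-1.14 to 0.01), the 95% interval of the difference between aged and adult McSC held 0. The difference was -0.11 for Dusp1 (interval -0.65 to 0.44), -0.24 for Dusp6 (-0.73 to 0.25), -0.12 for Spred1 (-0.66 to 0.41) and -0.58 for Etv5 (-1.26 to 0.10) on the log2 scale. Dusp4 was at -0.37 (-1.01 to 0.28), Dusp5 at 0.07 (-0.50 to 0.65) and Spry4 at -0.20 (-0.80 to 0.41). With factors from abundant genes the signs of Dusp1, Dusp4, Dusp6, Spry4 and Spred1 turned, so no direction is given for them.

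Against melanoblasts, aged McSC had 2 members higher and 5 lower, where 20.4% of all genes were higher and 20.3% lower. This comparison shares its melanoblast libraries with that of adult McSC. Dusp1 and Dusp6 were higher by 1.64 (SE 0.289, adjusted p = 0.000111) and 1.35 (SE 0.257, adjusted p = 0.000252) on the log2 scale by edgeR. Spred1 fell by 1.76 (SE 0.305, adjusted p = 9.46e-05), Spred2 by 2.21 (SE 0.289, adjusted p = 3.87e-06) and Etv5 by 3.95 (SE 0.42, adjusted p = 3.68e-07). Dusp4 at -1.26 and Spry1 at -1.16 also passed (adjusted p = 0.00792 and 0.0143), but not with factors from abundant genes (-0.11 and 0.03). Both lost the call without aged replicate 2 (-0.97 and -0.55, adjusted p = 0.115 and 0.317), and Spry1 also without melanoblast replicate 1 (-0.92, adjusted p = 0.0688). The other 3, Dusp5, Spry2 and Spry4, were at -0.01, -0.64 and -0.45 (adjusted p = 0.99, 0.0949 and 0.261). Spry2 passed as lower without melanoblast replicate 3 (-0.88, adjusted p = 0.0115), and with factors from abundant genes Dusp5 and Spry4 passed as higher (1.13 and 0.70, adjusted p = 0.00823 and 0.036).

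The rest of the pathway, from lists by role, did not all move one way in adult McSC against melanoblasts. Of 20 receptors and ligands, 12 were higher and 6 lower, with a median log2 fold change of 1.04. Those higher included scarce ligands, with a mean as low as 0.041 CPM in melanoblasts. The summed level of the list was lower, at 4687 to 7175 CPM in melanoblasts and 1704 to 3333 CPM in adult McSC. The melanocyte receptor Ednrb fell from 1538 to 362.3 CPM (log2 fold change -2.09, adjusted p = 1.88e-06 by edgeR), and Kit, Met and Erbb3, the last 2 named after their values were seen, were lower too. Egfr, the receptor of the EGF family, rose from 17.0 to 81.3 CPM, and its ligand Hbegf from 3.33 to 28.1 CPM. Fgf2, a fibroblast growth factor that melanocytes respond to, rose from 5.23 to 25.2 CPM. With factors from abundant genes 14 of the list were higher and 4 lower.

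Of 19 genes of the cascade itself, 10 were lower and none higher, with a median of -0.63, but 5 were higher and 4 lower with factors from abundant genes. Nras, the RAS gene often mutated in melanoma, fell from 440.9 to 121.5 CPM (log2 fold change -1.86, or -1.08 with those factors). Rps6ka3, which encodes an ERK-activated kinase, fell by 1.58 and Shc1, an adaptor, by 1.10 on the log2 scale.

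Among 6 other MAPK phosphatases, 1 was higher and 2 lower, with a median of -0.61. These became 2 higher and none lower, with a median of 0.17, under factors from abundant genes. Dusp10, whose product prefers p38 and JNK, was at 12.1 to 17.6 CPM in melanoblasts and 47.3 to 58.0 CPM in adult McSC, and rose by 1.77 (SE 0.228, adjusted p = 2.04e-06 by edgeR). Dusp7 and Dusp8 were lower by the main scaling (-0.77 and -0.84) but were at -0.03 and -0.05 with factors from abundant genes.

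Other restraints of RAS and ERK leaned lower, with 5 of 15 lower and 2 higher and a median of -0.32, which turned to 0.51, with 8 higher and 2 lower, under factors from abundant genes. Pebp1, the RAF kinase inhibitor protein, fell from 66.3 to 17.2 CPM, and Rasa3, a GTPase-activating protein, from 185.8 to 71.9 CPM. Both also passed with those factors. Nf1, the partner of the SPRED proteins, was at 451.8 and 252.6 CPM and Rasa1 at 117.5 and 52.9 CPM, with log2 fold changes of -0.84 and -1.15 that were -0.08 and -0.38 with factors from abundant genes.

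Other genes that respond to ERK were also called in both directions. Of 13, 8 were higher and 3 lower (median 1.28), or 10 and 2 with factors from abundant genes (median 2.06). Those higher included Egr1, from 159.7 to 1430 CPM, and Fos, from 185.0 to 1044 CPM. The 3 lower ones were Etv1 and Etv4, the other PEA3 factors, and Ccnd1, the gene of cyclin D1. Etv1 was at 100.6 to 139.6 CPM in melanoblasts, 13.6 to 25.9 CPM in adult and 13.5 to 14.7 CPM in aged McSC, and its log2 fold change was -2.66 in adult McSC (SE 0.238, adjusted p = 6.48e-09 by edgeR). Etv4, named after its values were seen, was scarce, at 9.24 and 4.27 CPM, and its fall of 1.12 did not pass with factors from abundant genes (-0.40, adjusted p = 0.359). Ccnd1 fell from 72.2 to 15.4 CPM.

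**Figure D5:**
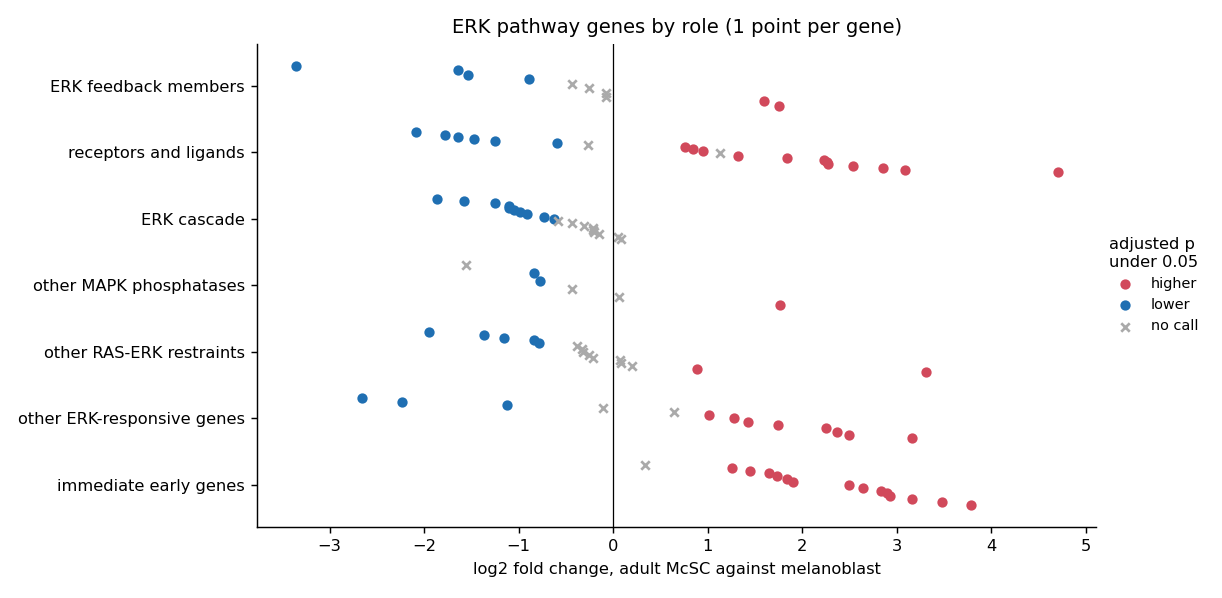
Log2 fold change in adult McSC against melanoblasts (horizontal axis) for each gene (points) of the 10 members and 6 lists by role (rows), coloured by edgeR call at an adjusted p under 0.05. Immediate early genes lie right of 0, cascade genes lie mostly left of it, and the members and the other ERK-responsive genes lie on both sides.

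Immediate early genes, which tissue dissociation can also induce, were higher in the same libraries in which Dusp1 was higher. Of 15, 14 were higher and none lower in adult McSC, and with factors from abundant genes 15 were higher (median log2 fold change 3.34). Their summed level was 1053 to 1883 CPM in melanoblasts, 5490 to 7541 CPM in adult and 7040 to 7226 CPM in aged libraries. Fos and Egr1 belong to this list as well. Socs3, an inhibitor of cytokine signalling, rose from 10.96 to 122.0 CPM, and Fosb and Junb, of the AP-1 family, rose by 2.83 and 2.90 on the log2 scale. Within the adult group the highest and the lowest sum belonged to replicates 1 and 4, as for Dusp1. In the aged group the order was opposite, with sums of 7040 and 7226 CPM in replicates 1 and 2 and Dusp1 at 519.3 and 358.4 CPM. Among melanoblasts the sum was highest in replicate 1 (1883 CPM) and Dusp1 in replicate 2 (164.5 CPM), and replicate 3 was lowest for both. The part of cell handling in the level of Dusp1 was not tested.

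Each member was also matched to the protein-coding gene with the most similar profile over the 9 libraries, among 8140 genes at a mean of at least 10 CPM, by the root mean square distance of log2 CPM centred on its mean. The nearest to Dusp1 was Ier5, an immediate early gene, at 0.206, with 37.2 to 44.3 CPM in melanoblasts and 91.0 to 197.6 CPM in adult McSC. The nearest to Etv5 was Uhrf1, which maintains DNA methylation during replication, at a distance of 0.306, the largest of the 10. Spred1 had the closest match of the 10, Tnpo1, a nuclear import receptor, at 0.046. The others were Tnxb for Dusp6 (0.142), Farp2 for Dusp4 (0.143), Atp1b2 for Dusp5 (0.169), Cmip for Spry1 (0.178), Numb for Spry2 (0.093), Urb1 for Spry4 (0.119) and Nrm for Spred2 (0.103).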

How the data were processed

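RNA of 9 sorted cell pools (20 ng each, amplified with 10 PCR cycles, 126-base read pairs, per the labels' protocols) was measured. The deposited files hold raw read counts per Ensembl gene, 1 file a library. Trimmomatic 0.36, FastQC 0.11.8, STAR 2.5.2, SAMtools 1.9, DESeq2 1.22.2 and build mm10 are named, per the submitters' processing notes. No source used here names the counter, annotation or strand setting, so reads of overlapping genes may be shared. GENCODE M21 named 49412 genes, and the 259 others held 0.029% of counts.

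Counts were tested with edgeR 4.0.16 in R 4.3.3: filterByExpr (31961 genes kept), TMM factors, robust quasi-likelihood fit of 3 group means over 9 libraries, and Benjamini-Hochberg adjustment over all genes tested in each comparison (threshold 0.05). Log2 CPM used a prior count of 2. Abundant genes are those with a mean log2 CPM above 5. Libraries of a group differed beyond counting noise (chi-square per degree of freedom 15.2 to 63.3). Each pooled several animals, and p-values measure the spread between these pools.

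The 10 members and all lists were chosen with earlier results of these data known. Genes named beside the members are, in each pathway list, up to 4 with the smallest p in adult McSC against melanoblasts among those called, the nearest profile of each member, Kit, Ptprc and markers. Of these, 1 gene is not reported here. The 19 alternatives were DESeq2 1.42.0, limma 3.58.1 (voom), other scalings and filters, a replicate block, the 2 groups alone and libraries left out. Library totals alone, and leaving out both libraries that stand apart (melanoblast replicate 3 and adult replicate 2), were added after seeing the data.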

Additional observations from a re-analysis of the deposited data

Results flagged for a closer look

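Of the 10 member genes examined in the 4 adult libraries, 1 had a library far from the others. Dusp6 stood at 86.3 CPM in adult replicate 2 and at 59.2, 60.5 and 58.4 CPM in replicates 1, 3 and 4. The gap to the nearest library made up 0.9235 of the whole range, above Dixon's critical value for 4 samples, which chance passes in about 1 in 20 groups. The call of Dusp6 as higher in adult McSC did not depend on that library, since the log2 fold change was 1.44 to 1.73 with any single library left out.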

How the results depend on the processing

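Of the 30 member values (10 genes in 3 comparisons), 14 kept their direction and call in all 19 alternatives, among them Dusp1, Dusp6, Spred1, Spred2 and Etv5 in both comparisons with melanoblasts. The counts of members called in aged against adult McSC were 0 throughout. With factors from abundant genes or with library totals, 4 members were higher in adult McSC against melanoblasts and 4 in aged McSC against melanoblasts. Of all 31961 genes tested, 10416 and 11026 were higher in adult McSC with these scalings, and 15341 and 15636 in aged McSC. In aged McSC against melanoblasts 3 members were lower with either scaling, as also with the strict filter. Genes lower there numbered 1770 and 1412 of 31961 with these scalings, and 3451 of 13639 with the strict filter. In that comparison, leaving out melanoblast replicate 3 gave 6 lower members, the most with any 1 library left out. Of all 31799 genes then tested, 7159 were lower. The fewest lower members came without aged replicate 2, which left 1 library in that group.

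In adult McSC against melanoblasts the values that turned sign were, with factors from abundant genes, Dusp5 0.72, Spry1 0.37, Spry2 0.73 and Spry4 0.51, with library totals 0.76, 0.45, 0.81 and 0.58, and with the strict filter 0.42, 0.06, 0.42 and 0.22. Dusp5 and Spry2 turned to 0.05 and 0.06 with no filter and to 0.01 and 0.01 with the 2 groups alone. With 1 library left out, Dusp5 ran from -0.21 to 0.08 and Spry2 from -0.32 to 0.07.

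In aged against adult McSC, factors from abundant genes gave Dusp1 0.21, Dusp4 0.06, Dusp6 0.13, Spry4 0.19 and Spred1 0.25. Library totals gave Dusp1 0.22, Dusp6 0.08, Spry4 0.14 and Spred1 0.19, the strict filter gave Dusp1 0.08, Spry4 0.03 and Spred1 0.10, and limma gave Dusp1 0.01. Without both libraries that stand apart, Dusp4 was at 0.06, Spry4 at 0.02 and Spred1 at 0.06. Leaving out 1 library gave -0.44 to 0.17 for Dusp1, -0.58 to 0.06 for Dusp4, -0.08 to 0.28 for Dusp5, -0.30 to 0.02 for Spry4 and -0.39 to 0.10 for Spred1.

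In aged McSC against melanoblasts, factors from abundant genes gave Dusp5 1.13, Spry1 0.03, Spry2 0.54 and Spry4 0.70, and library totals 1.16, 0.08, 0.58 and 0.73. The strict filter gave Dusp5 0.69, Spry2 0.08 and Spry4 0.25, no filter gave Dusp5 0.09, and the 2 groups alone gave Dusp5 0.11. With 1 library left out Dusp5 ran from -0.09 to 0.12. Calls lost with the strict filter were those of Dusp4 (-0.44 in adult and -0.55 in aged McSC) and Spry1 (-0.43 in aged McSC), and Spry1 also lost its call with the 2 groups alone (-1.02). Calls gained in aged McSC against melanoblasts were Spry2 as lower with limma (-0.79) and without both libraries that stand apart (-0.88), and Dusp5 and Spry4 as higher with library totals. In adult McSC, Spry1 gained a call without both (-0.74). The causes were not tested.

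The number of all genes called in aged against adult McSC, 97, was the least stable: 339 with DESeq2, 1416 with limma, 57 with abundant-gene factors, 343 with no filter, 311 with the 2 groups alone, 278 without both libraries that stand apart, 61 with library totals, and 13 (without aged replicate 2) to 303 (without melanoblast replicate 3) with 1 library left out. The strict filter, which tests fewer genes, gave 6877 and 7611 calls in adult and aged McSC against melanoblasts. Leaving out 1 library gave 8056 to 14059 and 7410 to 16292.

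Deviations of same-numbered libraries from their group means had correlations of -0.08 to 0.20, within the range of the other pairs, -0.24 to 0.28. With so few libraries behind each mean, this check cannot exclude that the numbers pair libraries. With a replicate block 172 genes were called in aged against adult McSC, Dusp5 there turned to -0.19, and the counts of members called stayed at 2 higher and 4 lower, none, and 2 higher and 5 lower. Of all 31961 genes, 3965 were then higher and 5070 lower in adult McSC against melanoblasts, and 6494 and 6246 in aged McSC against melanoblasts. With 2 aged libraries, leaving out 1 assumes that the other varies like the remaining groups.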
